A study of Mus musculus with 4 samples.

Results

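The 9 genes described here encode receptors and adhesion molecules by which T cells leave lymphoid organs, follow lipid cues or settle in tissues, measured by RNA-seq in splenic regulatory T (Treg) cells. They were taken by gene symbol from the deposited expression table, which lists 24087 genes, and all 9 were found in it. They were S1pr1, S1pr4, Cd69, Gpr183, Gpr18, Gpr15, Gpr83, Cd44 and Selplg. The KO group was Foxp3Cre-YFPSetd2f/f mice, whose Treg cells carry floxed Setd2 on both alleles, and the CTRL group was Foxp3Cre-YFPSetd2f/+ littermates. Both groups were C57BL/6 and carried the Foxp3-driven Cre-YFP, so the controls had 1 floxed Setd2 allele and the Cre as well. Setd2 is the enzyme that trimethylates lysine 36 of histone H3. Cells were sorted from the spleen at steady state as CD3+CD4+YFP+, and each of the 2 libraries per genotype pooled the cells of 2 mice. The labels give no age, and the study's methods describe its mice in general as age-matched young adults.

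Sphingosine-1-phosphate (S1P) is kept high in blood and lymph and low inside lymphoid tissue, and lymphocytes that carry S1PR1 follow it out. CD69, which is induced by activation, binds S1PR1 and takes it off the surface, so that the cell is retained. GPR183 senses oxysterols that guide cells within lymphoid organs, and GPR15 directs Treg cells to the large intestine. PSGL-1, encoded by Selplg, becomes a ligand of selectins only after it has been glycosylated and sulfated, and CD44 binds hyaluronan and is high on activated and memory T cells. GPR83 is a receptor long known as a transcript enriched in Treg cells.

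The genes with the largest fold changes in either direction were Gpr83, lower in KO, and Gpr15, higher in KO without passing the test. Their RefSeq promoters are shown because they differ in composition. Each runs from 250 bases before to 50 bases after the RefSeq start, 5′ to 3′ on the gene's strand. Capitals mark the letters TATAAA, the core of a TATA box, and CACCC, the core bound by Krüppel-like factors such as KLF2, an activator of S1pr1. Both motifs were searched on both strands, and a match on the other strand reads TTTATA or GGGTG.
Gpr83, chr9:14859960-14860259, plus strand, GRCm38.p6: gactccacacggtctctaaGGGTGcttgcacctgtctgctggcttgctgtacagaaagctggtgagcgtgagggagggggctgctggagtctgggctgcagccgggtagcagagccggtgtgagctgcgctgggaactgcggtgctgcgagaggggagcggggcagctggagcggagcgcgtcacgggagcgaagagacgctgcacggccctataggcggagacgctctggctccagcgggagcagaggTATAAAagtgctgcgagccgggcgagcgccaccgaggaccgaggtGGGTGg
Gpr15, chr16:58718823-58719122, minus strand, GRCm38.p6: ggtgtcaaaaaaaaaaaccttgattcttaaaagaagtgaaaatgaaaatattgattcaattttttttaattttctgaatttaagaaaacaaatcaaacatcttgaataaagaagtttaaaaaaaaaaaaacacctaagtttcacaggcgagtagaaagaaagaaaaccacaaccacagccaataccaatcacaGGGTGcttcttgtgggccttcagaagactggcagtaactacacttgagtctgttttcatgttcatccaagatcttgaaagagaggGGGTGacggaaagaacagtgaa

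The Gpr83 window had a GC content of 67% and 3 matches. They were GGGTG starting 231 bases before the start, TATAAA starting 1 base before it and GGGTG starting 45 bases after it. The Gpr15 window had a GC content of 33.7% and 2 matches of GGGTG, starting 57 bases before and 29 bases after the start. In the GENCODE annotation Gpr15 begins at 58719070, inside this window and upstream of the RefSeq start. Most of the bases counted as before the start, and both matches, thus lie within the GENCODE exon. Over 32851 RefSeq promoters of the same length, 13.6% held TATAAA and 57.5% held CACCC on either strand. Promoters were in the table for 6 of the 9 genes, of which 1 (Gpr83) held TATAAA and 3 (Gpr83, Gpr15 and S1pr4) held CACCC. A match describes letters in this window and is not a measured binding site. The TATAAA of Gpr83 runs across the RefSeq start and is not taken here as a working TATA box.

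Expression was given as FPKM, fragments scaled by gene length and library total, and at least 29984837 to 32683452 reads per library lay behind the values. CTRL 1 had 19100 genes above 0, whereas the other libraries had 15913 to 16410. The targeted gene, Setd2, had 23.4 and 25.3 FPKM in the CTRL libraries, compared with 21.3 and 19.5 in the KO libraries (limma adjusted p 0.0970, log2 fold change -0.24), over a whole gene that includes exons outside any deletion. Of the 11399 genes tested, 9.75% passed the threshold of adjusted p under 0.05, 5.1% higher and 4.65% lower in KO. Treg markers summed to 1258 and 1350 FPKM in CTRL and 1414 and 1332 FPKM in KO, and Foxp3 was at 112 to 140 FPKM. Of the 8 Treg markers, 1 (Nrp1) was called higher in KO and 0 lower, by limma and by limma-voom. Nrp1 was at 58.6 and 60.5 FPKM in CTRL and 76.4 and 83.1 FPKM in KO (log2 fold change 0.41, limma adjusted p 0.0375). At unadjusted p under 0.05, 3 of the 8 were higher and 1 lower, against 34.7% of all genes in either direction. Markers of other cells had lower sums than the Treg markers, over lists of unlike length. They summed to 8.49 to 11.4 FPKM for CD8 T cells, 22.2 to 42.5 for B cells, 20.5 to 57.3 for plasma cells, 24.3 to 29.6 for NK cells and 7.70 to 25.2 for erythroid cells and platelets. Myeloid markers stood at 176 FPKM in CTRL 1 and 243 FPKM in KO 1, against 105 FPKM in CTRL 2 and 85.9 FPKM in KO 2. Lyz2 alone was at 114 and 71.9 FPKM in CTRL and 153 and 60.0 FPKM in KO. In KO 1 it exceeded Foxp3, which was at 112 FPKM there. The sums of B, of plasma, of myeloid, and of erythroid and platelet markers were higher in both libraries numbered 1, of either genotype. Not every gene followed the sums. Pf4 was at 1.04 FPKM in CTRL 1 and 1.62 in CTRL 2, and Cd79b at 10.9 and 12.8 FPKM. In these 4 lists 0 genes passed the limma test, with 3 higher and 1 lower at unadjusted p under 0.05. Limma-voom called Cd22, a B cell gene, and Prdm1, which effector Treg cells also express, higher. Cd8a was at most 0.326 FPKM in any library, whereas Cd8b1, also in the CD8 T cell list, was at 8.33 to 11.2 FPKM.

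Gpr83 fell in KO, to 0.512 times its CTRL mean, while none of the other 8 transcripts passed the threshold. All 9 genes passed the filter on low values, and 1 of the 9 was called lower and 0 higher in KO (limma, adjusted over all genes tested), against 9.75% of all genes in either direction. At unadjusted p under 0.05 there were 3 higher (Gpr15, Gpr183 and Gpr18) and 2 lower (Cd44 and Gpr83), where 34.7% of all genes had such a p and 16.3% had it in the higher direction. Limma-voom on recovered reads also called 0 higher. Both KO libraries lay on one side of both CTRL libraries for 5 of the 9, against 64.5% of all genes tested. Fold changes of 6 of the 9 were above 0, as were those of 5271 of the 11399 genes tested. The median of the 9 was 0.11 on the log2 scale, against -0.02 for all genes. No direction of the set is read from these 9 values.

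**Figure D1:**
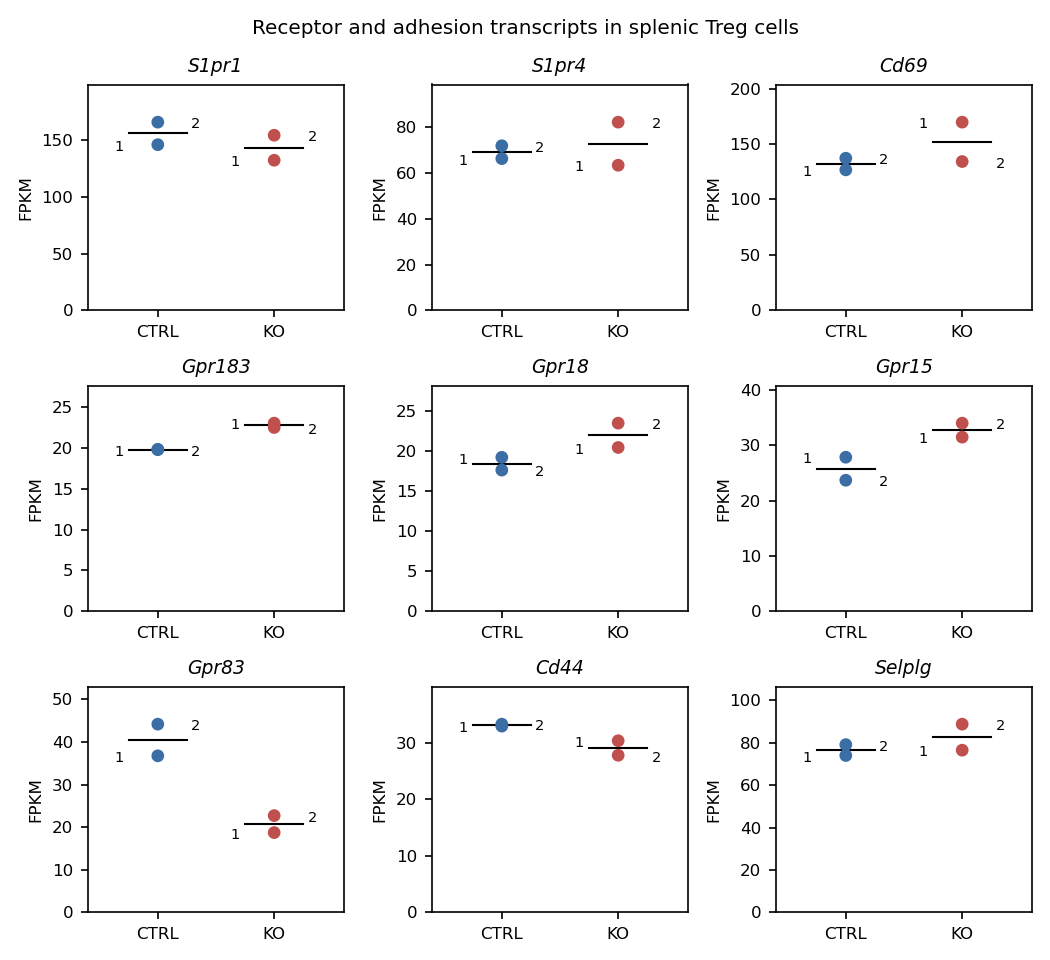
FPKM (vertical axes, each from 0) of the 9 transcripts in the CTRL (blue) and KO (red) libraries. Each point is 1 library with its replicate number, and the bar is the mean of 2. Gpr83 falls from 36.8 and 44.2 to 18.7 and 22.7 FPKM, and for S1pr1, S1pr4, Cd69 and Selplg the libraries of both genotypes overlap.

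Gpr83 (ENSMUSG00000031932, chr9:14860210-14870789, plus strand, GRCm38) has 4 coding exons with 1269 coding bases and encodes a G protein-coupled receptor of neuropeptides. It was at 36.8 FPKM in CTRL 1 and 44.2 in CTRL 2, against 18.7 in KO 1 and 22.7 in KO 2. Both KO libraries lay well below both CTRL libraries. The mean fell from 40.5 ± 5.25 to 20.7 ± 2.82 FPKM (n = 2 per group, SD), a KO to CTRL ratio of 0.512 and a log2 fold change of -0.93 (standard error 0.129, 95% interval -1.26 to -0.60, limma adjusted p 0.0351). The difference was -0.94 between the libraries numbered 1 and -0.93 between those numbered 2. Nothing in the labels pairs libraries by number, so the likeness of these values does not measure replication. At least 2715 and 3446 reads lay behind Gpr83 in CTRL and 1489 and 1814 in KO, and no other annotated gene overlaps it. The call was lost when every gene above 0 was tested (adjusted p 0.0861) and when any 1 library was left out (log2 fold change -1.07 to -0.80, adjusted p 0.0888 to 0.14). In bulk samples, fewer cells that carry a transcript and less of it per cell cannot be told apart.

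The tested genes with the profile nearest to Gpr83, by Euclidean distance of centred log2(FPKM + 1) over the 4 libraries, were Mir1898 (distance 0.0985) and Snord3a (0.105). Mir1898 was at 15.4 and 17.0 FPKM in CTRL and 7.51 and 9.17 FPKM in KO, and lies inside Zfr on the same strand. Snord3a was at 7.62 and 8.33 FPKM in CTRL and 3.27 and 4.07 FPKM in KO, and shares 213 exon bases with Rnu3a. Both are small noncoding RNA genes that an oligo(dT) selection is not made to keep, so their values are uncertain.

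Gpr15 (ENSMUSG00000047293, chr16:58717433-58719070, minus strand), whose 1080 coding bases lie in 1 exon, encodes the receptor for homing to the large intestine. It was at 27.9 FPKM in CTRL 1 and 23.7 in CTRL 2, against 31.5 in KO 1 and 34.0 in KO 2. The KO libraries were the higher ones and did not overlap CTRL. Its mean was 25.8 ± 2.94 FPKM in CTRL and 32.8 ± 1.79 FPKM in KO (n = 2 per group, SD). Its log2 fold change of 0.34 (standard error 0.0955, 95% interval 0.092 to 0.58) missed the threshold, at a limma adjusted p of 0.0805. The study reports Gpr15 as increased in KO Treg cells of both spleen and intestine. It chose genes at an unadjusted p under 0.05 (edgeR) and a mean FPKM above 5, and the unadjusted limma p here was 0.0166. That report rests partly on these libraries, so the direction seen here is not independent evidence. The difference was 0.17 between the libraries numbered 1 and 0.50 between those numbered 2, though the labels state no pairing by number. Gpr15 shares 204 exon bases with Cpox, a heme synthesis gene on the other strand, and the use of strand in counting was not stated. Cpox had 15.5 and 13.9 FPKM in CTRL and 16.9 FPKM in both KO libraries (adjusted p 0.147, log2 fold change 0.19), and its part in the Gpr15 values was not tested. The nearest profiles over the 4 libraries were those of F2rl2 (distance 0.0390) and Vim (0.0392). Vim, which encodes the intermediate filament vimentin, was at 334 and 294 FPKM in CTRL and 378 and 418 FPKM in KO (adjusted p 0.0687, log2 fold change 0.34). F2rl2 was at 1.27 and 1.01 FPKM in CTRL and 1.63 and 1.77 FPKM in KO, and lies inside Iqgap2 on the other strand.

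The egress receptor itself was abundant and overlapped between genotypes. S1pr1 (ENSMUSG00000045092, chr3:115710433-115715072, minus strand) was at 146 FPKM in CTRL 1 and 166 in CTRL 2, against 132 in KO 1 and 154 in KO 2. KO 2 lay between the CTRL libraries and KO 1 below them. The log2 fold change was -0.12 (standard error 0.103, 95% interval -0.39 to 0.14, limma adjusted p 0.443), so a fall of up to 0.39 or a rise of up to 0.14 on that scale was not distinguishable from no change with 2 libraries per group. It was -0.03 without CTRL 2 and -0.01 without KO 1. Klf2, an activator of S1pr1 transcription, was at 353 and 386 FPKM in CTRL and 338 and 326 FPKM in KO (adjusted p 0.179, log2 fold change -0.15).

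S1pr4 (ENSMUSG00000044199, chr10:81497747-81500132, minus strand) encodes an S1P receptor found mainly on blood cells. It was at 66.2 FPKM in CTRL 1 and 71.8 in CTRL 2, against 63.3 in KO 1 and 82.1 in KO 2. The KO libraries enclosed the CTRL libraries. The log2 fold change of 0.06 (standard error 0.132, 95% interval -0.27 to 0.40, limma adjusted p 0.767) had no stable sign, and was -0.02 under quantile normalization and -0.12 without KO 2.

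Cd69 (ENSMUSG00000030156, chr6:129267325-129275436, minus strand), a C-type lectin and the retention factor opposite S1pr1, was at 127 FPKM in CTRL 1 and 137 in CTRL 2, against 170 in KO 1 and 134 in KO 2. KO 1 stood above the other 3 libraries and KO 2 lay within CTRL. The mean was 132 ± 7.44 FPKM in CTRL and 152 ± 25.1 FPKM in KO (n = 2 per group, SD), with a log2 fold change of 0.19 (95% interval -0.12 to 0.51, limma adjusted p 0.317) that was 0.03 without KO 1 (adjusted p 0.873) and 0.36 without KO 2. KO 1 also had the highest sums of myeloid (243 FPKM), B cell (42.5 FPKM) and plasma cell (57.3 FPKM) markers. CTRL 1 had the next highest of each (176, 27.0 and 47.5 FPKM) and the lowest Cd69. The part of such cells in Cd69 was not tested. The ratio of S1pr1 to Cd69 in FPKM was 1.15 and 1.21 in CTRL and 0.778 and 1.15 in KO, and was below 1 in KO 1 only.

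**Figure D2:**
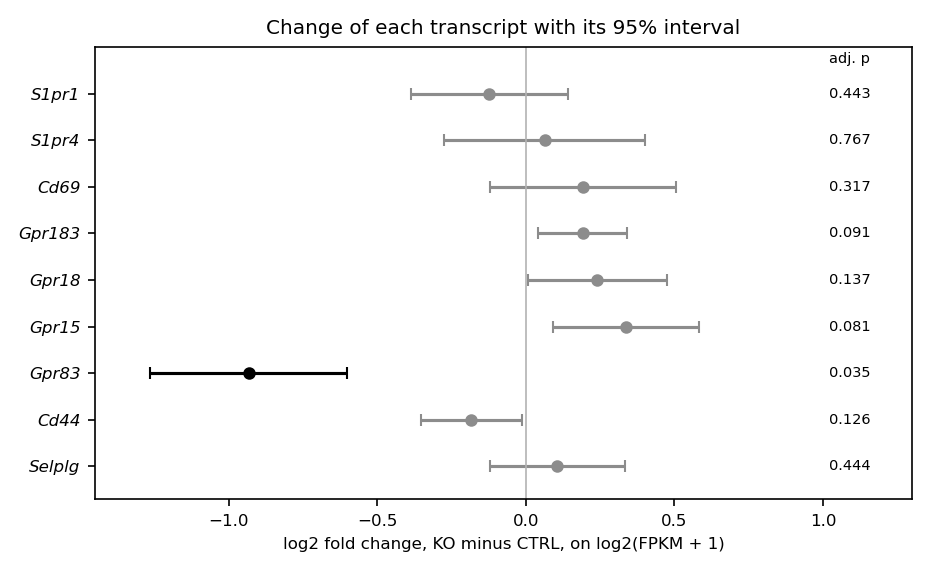
Log2 fold change of each transcript, KO minus CTRL on log2(FPKM + 1) (horizontal axis), with its 95% interval from limma and its adjusted p at the right. Gpr83, in black, is the 1 transcript past the threshold, at -0.93, and the intervals of Gpr183, Gpr18, Gpr15 and Cd44 leave out 0 before adjustment.

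For both receptors whose genes lie inside Ubac2, the KO libraries lay above CTRL and the test missed the threshold. Gpr183 (ENSMUSG00000051212, chr14:121952551-121965195, minus strand), the oxysterol receptor also called EBI2, was at 19.8 FPKM in both CTRL libraries, 23.0 in KO 1 and 22.5 in KO 2. The libraries of each genotype lay close together, and the genotypes did not overlap. The log2 fold change was 0.19 (standard error 0.0582, 95% interval 0.042 to 0.34, limma adjusted p 0.0908), and it kept between 0.17 and 0.21 over 15 other settings. Its change thus had the smallest standard error of the 9.

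Gpr18 (ENSMUSG00000050350, chr14:121911253-121915781, minus strand) encodes a receptor reported to bind lipid mediators and known for its part in placing T cells in the intestinal epithelium. It was at 19.2 FPKM in CTRL 1 and 17.6 in CTRL 2, against 20.4 in KO 1 and 23.5 in KO 2. The KO libraries lay above CTRL. On the log2 scale the difference was 0.0855 between the libraries numbered 1 and 0.40 between those numbered 2, without a stated pairing. The log2 fold change was 0.24 (standard error 0.0913, 95% interval 0.0060 to 0.47, limma adjusted p 0.137). Gpr183 and Gpr18 are neighbours on chromosome 14, and both lie in Ubac2 on the other strand and share 0 exon bases with it. Ubac2 was at 47.4 and 51.8 FPKM in CTRL and 54.1 and 53.4 FPKM in KO (adjusted p 0.269, log2 fold change 0.12), and reads from it within either gene were not tested.

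Cd44 and Selplg, the adhesion molecules of the set, were measured more precisely than most of the receptors. Cd44 (ENSMUSG00000005087, chr2:102811141-102901665, minus strand) has 19 coding exons in the annotation, several of them variable between isoforms, and the FPKM sums all isoforms. It was at 33.0 FPKM in CTRL 1 and 33.3 in CTRL 2, against 30.4 in KO 1 and 27.8 in KO 2. Both KO libraries lay below CTRL. The log2 fold change was -0.18 (standard error 0.0667, 95% interval -0.35 to -0.01, limma adjusted p 0.126), ranging from -0.25 to -0.12 over 15 other settings.

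Selplg (ENSMUSG00000048163, chr5:113818536-113832644, minus strand), the PSGL-1 gene, was at 74.0 FPKM in CTRL 1 and 79.2 in CTRL 2, against 76.5 in KO 1 and 88.8 in KO 2. KO 1 lay between the CTRL libraries and KO 2 above them. The log2 fold change was 0.11 (standard error 0.0885, 95% interval -0.12 to 0.33, limma adjusted p 0.444), and without KO 2 it was -0.000349.

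**Figure D3:**
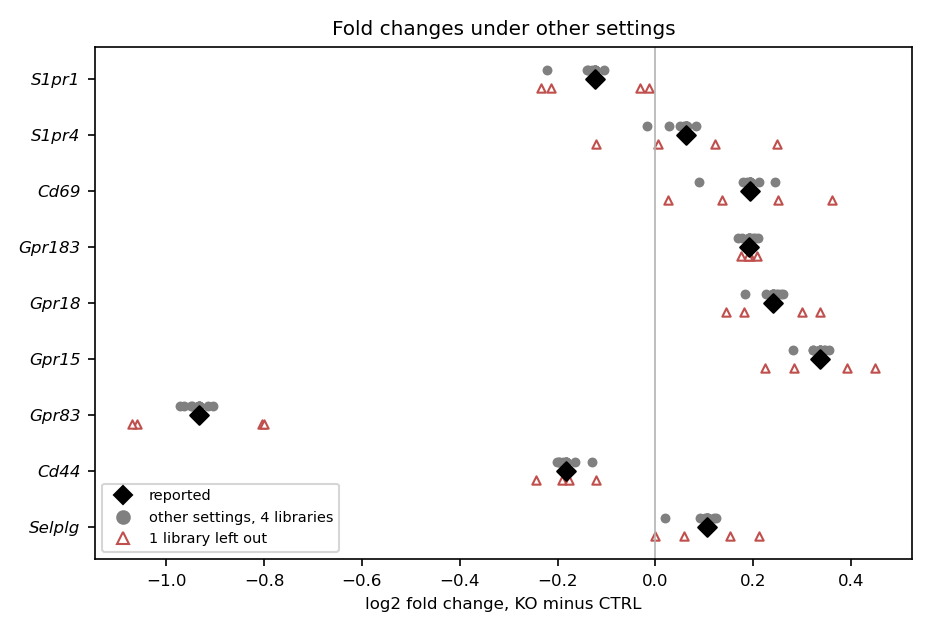
Log2 fold change of the 9 transcripts, KO minus CTRL (horizontal axis), as reported (diamonds), under 11 other settings with all 4 libraries (circles) and with 1 library left out (triangles). Gpr83 stays between -1.07 and -0.80, and only S1pr4 and Selplg cross 0.

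By level per gene length, the 9 transcripts spanned 8.46-fold in CTRL, from S1pr1 at a mean of 156 FPKM to Gpr18 at 18.4 FPKM. The order of CTRL means was S1pr1, Cd69, Selplg, S1pr4, Gpr83, Cd44, Gpr15, Gpr183 and Gpr18, and no neighbours in it had overlapping CTRL ranges. S1pr1 lay at the 96.3 percentile of tested genes and Gpr18 at the 64.4 percentile. In KO the order began with Cd69 and S1pr1, whose KO ranges overlapped. Gpr83 moved from rank 5 in CTRL to rank 9 in KO, where its range overlapped those of Gpr18 and Gpr183, while Gpr15 moved from rank 7 to rank 5. KO 2 was above KO 1 for 6 of the 9 transcripts, the exceptions being Gpr183, Cd44 and Cd69.

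The other genes of these pathways were read from lists, in which 89 genes were no member, 88 were in the table and 59 were tested. Of these, 5 were called higher and 1 lower in KO, so that 6 of the 59 were called in either direction, against 9.75% of all genes tested. This share is near the background. At unadjusted p under 0.05 the 59 genes had 10 higher and 11 lower, against 34.7% of all genes in either direction. Nothing is read from the counts, of calls or of unadjusted p, about any list as a whole. The median log2 fold change of the 59 genes was -0.01, against -0.02 over all genes. In the S1P and egress list, which includes S1pr1, S1pr4 and Cd69, 16 of 21 genes were tested, and 1 was higher and 0 lower (median 0.03). An unadjusted p under 0.05 was found for 3 higher and 3 lower genes, and limma-voom called 1 higher and 1 lower (Sgpl1, the S1P lyase). The higher gene was Gnai2, a subunit of the inhibitory G protein through which S1PR1 and most chemoattractant receptors signal, at 431 and 455 FPKM in CTRL and 590 and 609 FPKM in KO (log2 fold change 0.44, standard error 0.0595, limma adjusted p 0.0351). The kinase gene Sphk1, the exporter gene Spns2 and the receptor genes S1pr3 and S1pr5 were below the filter. S1pr2, the S1P receptor that restrains migration, was at 5.62 and 6.32 FPKM in CTRL and 8.07 and 7.43 FPKM in KO without passing the test.

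In the oxysterol list 3 of 5 genes were tested and 0 were called in either direction, with 1 (Gpr183) higher and 0 lower at unadjusted p under 0.05. Limma-voom also called 0 of them. Ch25h and Cyp7b1, which make the GPR183 ligand, were at most 0.584 and 0.0563 FPKM. Of 18 genes around hyaluronan and CD44, 12 were tested and 0 were called, with 1 higher and 3 lower at unadjusted p under 0.05. Limma-voom called 1 of them higher, which was Hmmr. The largest log2 fold change of the list was that of this gene, a hyaluronan receptor also known as a proliferation gene, at 6.33 and 4.13 FPKM in CTRL and 9.24 and 8.65 FPKM in KO (0.70).

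In the list of selectin ligand synthesis, 16 of 18 genes were tested, with a median log2 fold change of -0.02. By limma 3 were higher and 0 lower in KO, against 5.1% and 4.65% of all genes tested. An unadjusted p under 0.05 was found for 3 higher and 3 lower genes, and limma-voom called 3 higher and 1 lower, which was Glg1, an E-selectin ligand. Fut7, the fucosyltransferase that completes the sialyl Lewis X group, was at 4.41 and 4.47 FPKM in CTRL and 8.47 and 9.35 FPKM in KO. Both KO libraries were well above both CTRL libraries, with a KO to CTRL ratio of 2.01 and a log2 fold change of 0.86 (standard error 0.0855, limma adjusted p 0.0306). St3gal3, a sialyltransferase, was at 3.14 and 3.05 FPKM in CTRL and 6.60 and 6.08 FPKM in KO (adjusted p 0.0310, log2 fold change 0.84). Tpst2, a tyrosine sulfotransferase, was at 66.8 and 64.2 FPKM in CTRL and 85.0 and 92.9 FPKM in KO (0.43, adjusted p 0.0367). The ratio of Fut7 to Selplg in FPKM was 0.0596 and 0.0565 in CTRL and 0.111 and 0.105 in KO. Other enzymes of the same list had values in the opposite direction without passing the test, such as Gcnt1, the core branching enzyme, at 3.36 and 2.56 FPKM in CTRL and 1.92 and 2.20 FPKM in KO (log2 fold change -0.36).

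Among 31 lipid-sensing receptors 19 were tested, and 1 was higher and 1 lower (median 0.08). An unadjusted p under 0.05 was found for 4 higher and 3 lower genes, and limma-voom called 1 higher and 2 lower (Ptger4 and P2ry10). Gpr55, a receptor for lysophosphatidylinositol, was at 5.14 and 5.53 FPKM in CTRL and 10.3 and 12.0 FPKM in KO (log2 fold change 0.94, standard error 0.0992, limma adjusted p 0.0310). Ptger4, a prostaglandin E2 receptor, was at 39.9 and 41.9 FPKM in CTRL and 30.4 and 31.2 FPKM in KO (log2 fold change -0.40, standard error 0.0585, adjusted p 0.0351). Gpr55 shares 71 exon bases with 4933407L21Rik, and Ptger4 shares 82 with Ttc33 and 1015 with the pseudogene Gm15937, all on the other strand. Of 5 genes for Gpr83 and Gpr15 and their ligands, the receptors alone were tested, and Pcsk1n and Cck were at most 0.0139 FPKM. All 6 calls among these pathway genes were lost when every gene above 0 was tested and when any 1 library was left out, and that of Tpst2 also without the variance trend (adjusted p 0.0529).

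**Figure D4:**
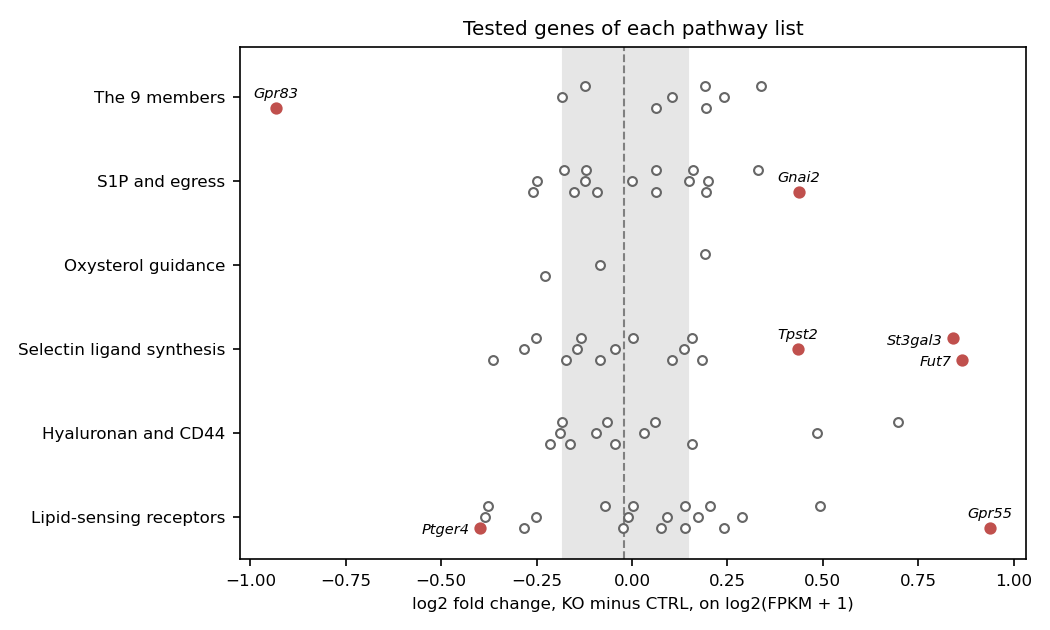
Log2 fold change, KO minus CTRL on log2(FPKM + 1) (horizontal axis), of the tested genes of 6 lists, 1 point per gene, with genes past the threshold filled and named. The grey band is the range between the quartiles of all genes tested, -0.18 to 0.15, and the dashed line their median. Gpr83 lies far below the band and Fut7, St3gal3 and Gpr55 far above it.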

How the data were processed

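Poly(A)-selected RNA of splenic Treg cells was sequenced as 150 bp read pairs. The authors aligned reads to mm10 (GRCm38) with HISAT2 (version 2.2.1) and counted them per gene with featureCounts (version 2.0.1), as the submitters' processing notes and methods name these tools. The deposited values were FPKM per gene, made by the authors, and the gene length, use of strand and handling of multi-mapped reads are not given in the sources used here. Control columns named WT with a number were read as the CTRL libraries of that number. Nothing states a batch. The p-values rest on the spread between 2 pooled libraries per group, with each gene's variance drawn toward a trend over all genes tested.

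The contrast of KO and CTRL was fitted with limma (version 3.58.1 in R 4.3.3, lmFit and eBayes with trend) on log2(FPKM + 1), over the 11399 genes that reached 1 FPKM in 2 or more libraries. Every test was two-sided, with Benjamini-Hochberg adjustment over all of them. The pseudocount understates changes of low genes. Since the values are not counts, the edgeR test of the study (version 3.34.0) was not used. FPKM of 19887 of 19888 genes above 0 (99.995%, tolerance 0.002) were related between libraries by ratios of whole numbers. These ratios gave least read numbers and relative depths of 1 to 1.08, and limma-voom was run on these reads. These numbers cover counting only and are lower bounds. The fit was tested on simulated data, where a larger share of the calls fell in unchanged genes than the threshold is set for. The file had 58 rows with a repeated gene identifier. Positions came from GENCODE vM21, which annotated 24062 genes, and promoters from RefSeq (GRCm38.p6).

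Named genes were the 9 members, Setd2, Klf2, pathway genes past the threshold (at most 6 per list), the 2 nearest profiles for Gpr15 and Gpr83, and overlapping genes. A further gene of the rule and lists is not reported here, and the list counts leave it out. S1pr2, Gcnt1, Hmmr, Sgpl1, Glg1, P2ry10, Cd22, Prdm1 and the genes below the filter were chosen after their values were seen. The same holds for Nrp1, Cd8b1, Cd79b, Pf4 and Lyz2. The members and lists were chosen with earlier results of these data known. Alternatives were 2 filters, a pseudocount of 0.1, 3 scalings, 2 variance models, a replicate block, limma-voom, removal of the exon length trend and leaving out each library.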

Additional observations from a re-analysis of the deposited data

How the results depend on the processing

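Of the 15 alternatives, 11 kept all libraries and 4 left out 1. Members called higher in KO numbered 0 in all 15, and Gpr83 was the member called lower in 10 of the 11. With every gene above 0 tested (19888 genes), 0 genes were called higher and 0 lower, 0 members and 0 other pathway genes. Gpr83 kept its log2 fold change of -0.93 with a limma adjusted p of 0.0861. In that fit more genes entered the adjustment and the variance trend was fitted anew, and the part of either was not tested. Leaving out 1 library left 0 to 1 genes higher, 0 to 1 lower, 0 members, and 0 other pathway genes in either direction, with fewer samples in each fit. Gpr83 then ranged from -1.07 to -0.80 on the log2 scale. Genes called higher numbered 315 without the variance trend. Genes called lower numbered 1027 with limma-voom and 340 with the exon length trend removed. The other pathway genes called lower numbered 1 as reported, 3 with quantile normalization and 4 with limma-voom, and the cause was not tested. S1pr4 changed sign under quantile normalization (-0.0175) and without KO 2 (range -0.121 to 0.249 over libraries left out), as did Selplg without KO 2 (range -0.000349 to 0.212). Both were within their intervals around 0. The share of calls higher in KO was 52.3% as reported, 58.1% after median-ratio scaling, 46.8% at equal library sums and 60.8% with the length trend removed.

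Nothing in the labels ties same-numbered libraries to a shared animal, litter or day. Across genes, their deviations had a Pearson r of 0.342 and a Spearman rho of 0.0553. Both libraries numbered 1 had higher sums of B, plasma, myeloid, and erythroid and platelet markers, though not of every gene in them. With 2 numbers and no stated pairing, the replicate block is given here only. With the replicate block 968 genes were higher and 805 lower, 2 other pathway genes were lower, and the adjusted p was 0.00693 for Gpr83 and 0.0630 for Gpr15. It changed the call of no member. With 2 libraries per group, intervals as wide as that of S1pr4 (-0.27 to 0.40) limit what could be detected.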
